A study of Homo sapiens with 13 samples.

Results

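The genes described here are 43 genes of the unfolded protein, amino acid and heat shock responses, measured by Affymetrix array in human non-small cell lung carcinoma cells that had been selected for growth in bone. A gene was measured where the platform annotation gives a probe set that names that gene alone, and where there were several the brightest by its mean over the 13 arrays was used. This gave 39 of the 43 genes, out of 11963 genes measured in the same way. SYVN1 had no probe set, and HSPA1A, HSPA1B and HSPA8 had only probe sets that name further genes. The 39 genes comprised 9 stress sensors and signalling genes, 8 chaperones of the endoplasmic reticulum (ER), 6 genes of ER degradation and translocation, 5 genes of the amino acid response and 11 genes of the heat shock response.

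Controls were carcinoma cells without a luciferase reporter (2 arrays) and with it (2 arrays). The lines M1, M4 and M5 (3 arrays each) were recovered from the bones of mice that had received control cells by intracardiac injection, so each is a selected population and the controls share its origin and not its passage through an animal. Every array held a pool of 3 groups of cells of its line, and the arrays are labelled as biological replicates, so p-values measure only the spread between such pools. In whole-culture RNA, fewer cells that express a gene and less RNA per cell cannot be told apart. Values are log2 signals, so a difference of 1 is a 2-fold change.

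Unfolded proteins in the ER are sensed by ERN1 (IRE1), EIF2AK3 (PERK) and ATF6, which through spliced XBP1, ATF4 and cleaved ATF6 raise chaperones, degradation factors and, under prolonged stress, DDIT3 (CHOP). ATF4 is also made when amino acids run short, and it then raises asparagine synthetase and amino acid transporters. Unfolded proteins in the cytosol instead release HSF1, which raises HSP70, HSP40 and HSP110 chaperones. Tumour cells are known to use these programmes when nutrients or oxygen are scarce.

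The promoters of 6 of the genes named below are shown because they hold the DNA element of one of these programmes, and not because of the size of their change. Each covers the 250 bases before a RefSeq start (GRCh38.p14), in lower case with the element in capitals. The promoter of ASNS lies at chr7:97872409-97872658 (minus strand), that of HERPUD1 at chr16:56931892-56932141 (plus), that of ATF3 at chr1:212565157-212565406 (plus), that of XBP1 at chr22:28800570-28800819 (minus), that of HSPA5 at chr9:125241344-125241593 (minus) and that of HSP90AA1 at chr14:102087045-102087294 (minus). The capitals mark the C/EBP-ATF element TGATGNAA in ASNS, HERPUD1 and ATF3, the ER stress element (CCAAT and CCACG with any 9 bases between them) in XBP1 and HSPA5, and the heat shock element (GAA, TTC and GAA with any 2 bases between neighbours) in HSP90AA1. Both strands were searched, and no marked element overlaps another.
ASNS: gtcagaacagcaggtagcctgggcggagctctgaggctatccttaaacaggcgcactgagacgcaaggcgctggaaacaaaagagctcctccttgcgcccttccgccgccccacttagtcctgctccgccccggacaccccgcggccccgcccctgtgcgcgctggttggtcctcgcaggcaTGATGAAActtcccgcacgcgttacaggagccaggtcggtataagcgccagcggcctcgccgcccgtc
HERPUD1: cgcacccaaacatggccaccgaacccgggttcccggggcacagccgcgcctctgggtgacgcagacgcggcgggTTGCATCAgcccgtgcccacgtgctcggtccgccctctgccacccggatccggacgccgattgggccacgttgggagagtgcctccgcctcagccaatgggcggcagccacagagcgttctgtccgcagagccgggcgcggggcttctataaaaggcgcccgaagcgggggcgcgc
ATF3: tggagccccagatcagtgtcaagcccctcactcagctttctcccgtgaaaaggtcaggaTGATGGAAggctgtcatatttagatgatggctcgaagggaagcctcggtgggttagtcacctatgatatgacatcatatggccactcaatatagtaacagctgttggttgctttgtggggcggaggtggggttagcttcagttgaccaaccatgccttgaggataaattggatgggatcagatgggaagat
XBP1: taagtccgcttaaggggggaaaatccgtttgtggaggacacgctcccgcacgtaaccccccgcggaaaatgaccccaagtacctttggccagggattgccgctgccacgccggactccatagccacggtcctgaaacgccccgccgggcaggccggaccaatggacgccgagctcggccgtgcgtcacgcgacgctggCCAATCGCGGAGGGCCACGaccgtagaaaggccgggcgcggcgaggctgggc
HSPA5: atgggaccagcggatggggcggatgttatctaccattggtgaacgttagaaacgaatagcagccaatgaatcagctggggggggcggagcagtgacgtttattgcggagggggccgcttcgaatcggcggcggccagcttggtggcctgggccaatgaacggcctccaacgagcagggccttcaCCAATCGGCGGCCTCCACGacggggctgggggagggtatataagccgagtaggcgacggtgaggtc
HSP90AA1: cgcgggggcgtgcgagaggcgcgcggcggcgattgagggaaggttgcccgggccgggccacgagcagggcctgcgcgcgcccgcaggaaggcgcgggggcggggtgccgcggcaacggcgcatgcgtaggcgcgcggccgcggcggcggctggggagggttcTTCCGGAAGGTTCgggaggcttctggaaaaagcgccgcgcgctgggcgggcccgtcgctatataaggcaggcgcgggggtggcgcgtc

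RefSeq gave promoters for 40 of the 43 genes. The C/EBP-ATF element was in 3 of these genes (ASNS, ATF3 and HERPUD1) and in 3.14% of all 35116 promoters searched. The ER stress element was in 4 genes (HSP90B1, HSPA5, PDIA6 and XBP1) and in 0.074% of all promoters. HYOU1 alone held TGACGTGG, which is in 0.612% of promoters. The heat shock element was in 4 genes (HSP90AA1, HSP90AB1, HSPA8 and HSPD1) and in 0.441% of promoters. A gene counts here if any of its promoters matched (57 promoters for the 40 genes), while the percents count single promoters, so the units differ. A match is a description of the letters and not of binding.

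The arrays also fall into sets that cross the groups. The 62 Affymetrix control probe sets divided the arrays into 4 clusters, for which the labels give no batch. Cluster 1 held the first array of both controls and M1 replicate 2, cluster 2 the second array of both controls and replicate 1 of every line, cluster 3 M1 replicate 3 with M4 replicates 2 and 3, and cluster 4 M5 replicates 2 and 3. Each comparison is therefore given without and with the clusters as a block, and with the block M5 is set against control through its first array alone. The clusters held more of the sum of squares than the groups in 37 of 39 members (94.9%), against 74.7% of all genes. Among markers, KRT7, KRT8, KRT18 and KRT19 of epithelial cells were above the median gene, and EPCAM and CDH1 were below it. Of the lung lineage markers SFTPC was above, NKX2-1 and SFTPB below. None of the 5 haematopoietic, 3 endothelial, 1 osteoblast and 2 osteoclast markers measured was above it, 2 of 5 fibroblast markers were (COL1A1 and COL3A1), and human probes do not test mouse host cells.

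M5 replicate 2 stood apart from the other 12 arrays. It had the highest signal of all arrays for 13 of 39 members (33.3%, against 20.5% of all genes) and the lowest for 14 (35.9%, against 17.7%). The direction followed the members' roles. All 5 amino acid genes and 7 of the 9 sensors and signalling genes were highest there, while 8 of the 11 heat shock genes, 3 of the 8 ER chaperones and 3 of the 6 degradation and translocation genes were lowest. Low ER genes were shared with M5 replicate 3, which was lowest for 9 of 39 members (23.1%, against 8.16% of all genes). These included 3 of the 8 ER chaperones and 2 of the 6 degradation and translocation genes, but 0 of the 11 heat shock genes. M5 replicate 2 was noticed after the values had been seen, so its values are a description with no test. The log2 difference between the 3' and 5' control probe sets of GAPDH was also highest on this array (0.17, over a range of 0.03 to 0.17), while that of ACTB (0.15) lay within the range of the other arrays (-0.19 to 0.30). The ACTB difference was above 0 on all 5 arrays of clusters 3 and 4 (0.11 to 0.30) and below 0 on all 8 arrays of clusters 1 and 2 (-0.19 to -0.03). The ACTB and GAPDH probe sets are among the control probe sets that defined the clusters, so this division is partly built in. The part of RNA quality in these values was not tested. Results for the mean of the lines, and most differences of members between M5 and control, are given with and without M5 replicate 2. Calls in the related lists are given only with it.

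**Figure D1:**
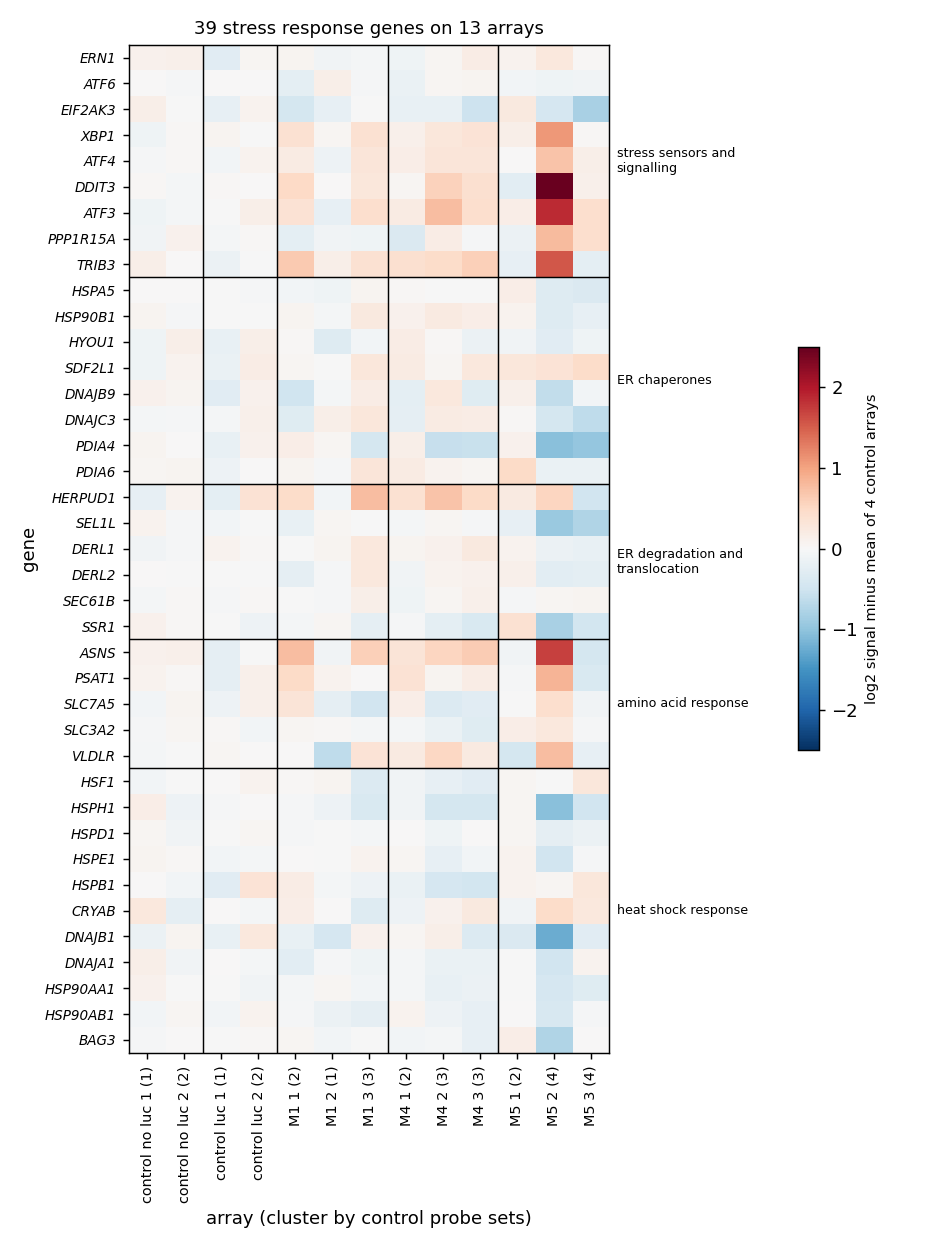
Colour shows the log2 signal of each of 39 genes (vertical axis, grouped by role) minus its mean over the 4 control arrays, on each of the 13 arrays (horizontal axis, with the array cluster in brackets). M5 replicate 2 is red for DDIT3, ATF3, TRIB3, ASNS and XBP1 and blue for DNAJB1, HSPH1 and BAG3, while both arrays of cluster 4 are blue for PDIA4 and SEL1L.

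For the mean of the bone-metastatic lines, no member differed from control at an adjusted p under 0.05 (limma, Benjamini-Hochberg over all genes). Over all genes 0.0251% were called in this comparison, and with the clusters as a block 0 of 39 members and 0.527% of all genes were. The unadjusted p was under 0.05 for 1 of 39 members (SDF2L1), against 8.16% of all genes, and for 0 once clusters were fitted, against 9.69%. Leaving out M5 replicate 2, it was under 0.05 for 4 (XBP1, ATF3, TRIB3 and SDF2L1), against 6.92% of all genes. The members' median log2 difference was -0.05, beside 0.01 over all genes. Of the sensors and signalling genes 7 of 9 had a higher mean in the lines, and of the heat shock genes 10 of 11 had a lower one, but none of these differences passed. Over all genes 47.4% had a lower mean. With the block these counts became 5 of 9 and 6 of 11, and 55.6% of all genes were lower. Without M5 replicate 2, 6 of 9 sensors and signalling genes and 1 of 11 heat shock genes were higher. In that fit 0 members and 0% of all genes were called.

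Of all members, DDIT3 had the widest range over the 13 arrays (2.73), followed by ASNS (2.14) and ATF3 (2.08). DDIT3 encodes CHOP, which links lasting ER stress to cell death. Its signal was 7.35, 7.28, 7.36 and 7.33 on the 4 control arrays, 7.82, 7.34 and 7.62 on the M1 arrays, 7.39, 7.91 and 7.72 on the M4 arrays and 7.08, 9.81 and 7.47 on the M5 arrays. One M5 array thus lay far above everything else, while the first M5 array was the lowest of all. DDIT3 in M5 differed from control by 0.79 ± 0.47 (SE; limma adjusted p = 0.403), and without M5 replicate 2 by -0.06 ± 0.17 (adjusted p = 0.952).

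TRIB3 is a pseudokinase induced by ATF4 and CHOP. Its signal was 9.47, 9.34, 9.19 and 9.33 in the controls, 9.99, 9.48 and 9.71 in M1, 9.74, 9.79 and 9.93 in M4 and 9.14, 10.89 and 9.10 in M5. All M1 and M4 arrays were above all control arrays, whereas M5 held both the highest and the lowest array. M1 exceeded control by 0.39 ± 0.33, M4 by 0.48 ± 0.33 and M5 by 0.38 ± 0.33 (SE), with limma adjusted p of 1, 0.909 and 0.578. The M5 difference turned to -0.21 ± 0.14 without M5 replicate 2 and to -0.27 ± 0.48 with the block, with neither called. Without M5 replicate 2, TRIB3 in M5 was called lower than in M4, the sole member called there beside 1.04% of all genes.

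ATF3, a stress-induced repressor and activator, gave the largest difference of M5 from control among the sensors and signalling genes (0.82 ± 0.32, 1.77-fold; limma adjusted p = 0.212). Its 4 control arrays read 4.73, 4.78, 4.82 and 4.97 and its M5 arrays 4.998, 6.70 and 5.25, so the groups did not overlap. ATF3 lay at the 36.2 percentile of all genes by mean signal. Without M5 replicate 2 its difference was 0.30 ± 0.19. XBP1, the factor activated by ERN1, read 8.19 on M5 replicate 2 and 7.01 to 7.49 on the other 12 arrays. ATF4 itself read 12.41 there and 11.57 to 11.996 elsewhere. Among the sensors the range over all 13 arrays was 0.56 for ERN1, 0.40 for ATF6 and 1.04 for EIF2AK3, the last with its lowest signal on M5 replicate 3 (4.33). PPP1R15A, which restores translation by directing a phosphatase to eIF2 alpha, read 6.38 on M5 replicate 2 and 6.005 on M5 replicate 3, against 5.21 to 5.75 on the other arrays.

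**Figure D2:**
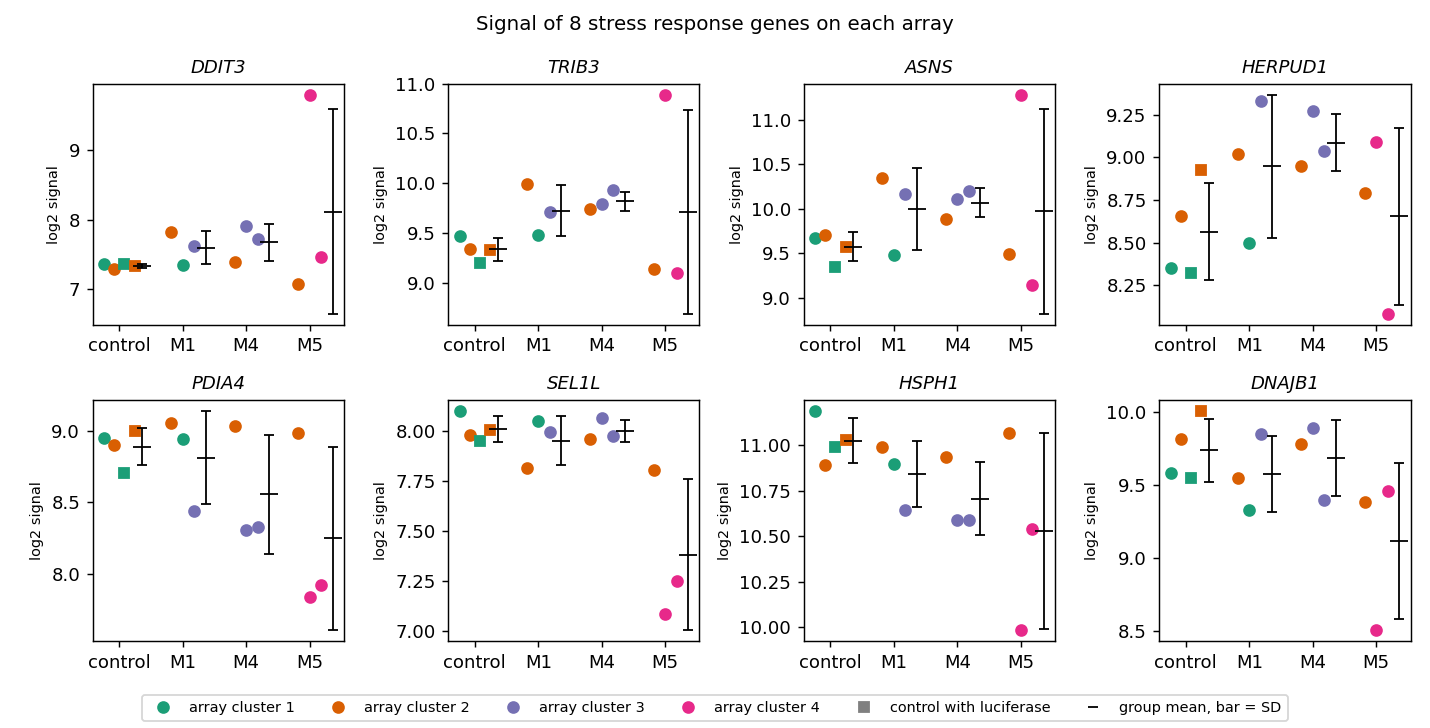
Each point is the log2 signal (vertical axis) of a gene on 1 array, in the 4 control arrays and the 3 arrays each of M1, M4 and M5, coloured by array cluster; squares are controls with luciferase, and dashes with bars are group means with SD. DDIT3, TRIB3 and ASNS have 1 high M5 array and HSPH1 and DNAJB1 have 1 low M5 array, whereas PDIA4 and SEL1L are low on both M5 arrays of cluster 4.

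The amino acid genes followed the same array. ASNS makes asparagine and is a standard target of ATF4. It read 9.67, 9.71, 9.35 and 9.57 in the controls, 10.35, 9.48 and 10.17 in M1, 9.89, 10.11 and 10.20 in M4 and 9.49, 11.28 and 9.14 in M5. All 3 M4 arrays were above every control array, and M5 again held the highest and the lowest. Against control ASNS was higher by 0.43 ± 0.39 for M1, 0.49 ± 0.39 for M4 and 0.40 ± 0.39 for M5 (SE; limma adjusted p = 1, 0.95 and 0.616), and without M5 replicate 2 the last became -0.26 ± 0.21.

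SLC3A2 is the heavy chain that carries amino acid transporters such as SLC7A5 to the cell surface. It read 9.17, 9.25, 9.21 and 9.13 in the controls, 9.24, 9.22 and 9.14 in M1, 9.13, 9.02 and 8.88 in M4 and 9.36, 9.45 and 9.16 in M5. M5 was above M4 by 0.31 ± 0.11 (SE; limma adjusted p = 0.188), which did not pass. PSAT1, an enzyme of serine synthesis, read 11.41 on M5 replicate 2 and 10.18 to 11.04 elsewhere. SLC7A5 (9.79) and VLDLR (5.05), a lipoprotein receptor, were likewise highest there. All 5 amino acid genes had a higher mean in M5 than in control, by 0.04 to 0.40, with none called. Only SLC3A2 (1 of 5) did without M5 replicate 2, by 0.07, and with the block, by 0.16.

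Because M5 replicates 2 and 3 share a line and an array cluster, their difference shows the size of the pattern within both. DDIT3 was 5.06-fold higher on replicate 2, ranking 2 of 11963 genes from the top. ASNS was 4.41-fold higher (rank 4), TRIB3 3.46-fold (rank 8), ATF3 2.73-fold (rank 14), PSAT1 2.34-fold (rank 21), XBP1 2.07-fold (rank 34), HERPUD1 2.02-fold (rank 38) and VLDLR 1.96-fold (rank 41). At the other end DNAJB1 was 1.94-fold lower, ranking 11 from the bottom, and BAG3 1.69-fold lower (rank 53). In all, 7 of 39 members differed by more than 1 log2 unit between these arrays, against 0.376% of all genes. Between the arrays of M1, of M4 and of either control no member did, where 0.00836 to 0.769% of all genes did. Between M5 replicates 1 and 2, 8 members did (5.5% of all genes), and between M5 replicates 1 and 3, 2 members (3.14%).

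**Figure D3:**
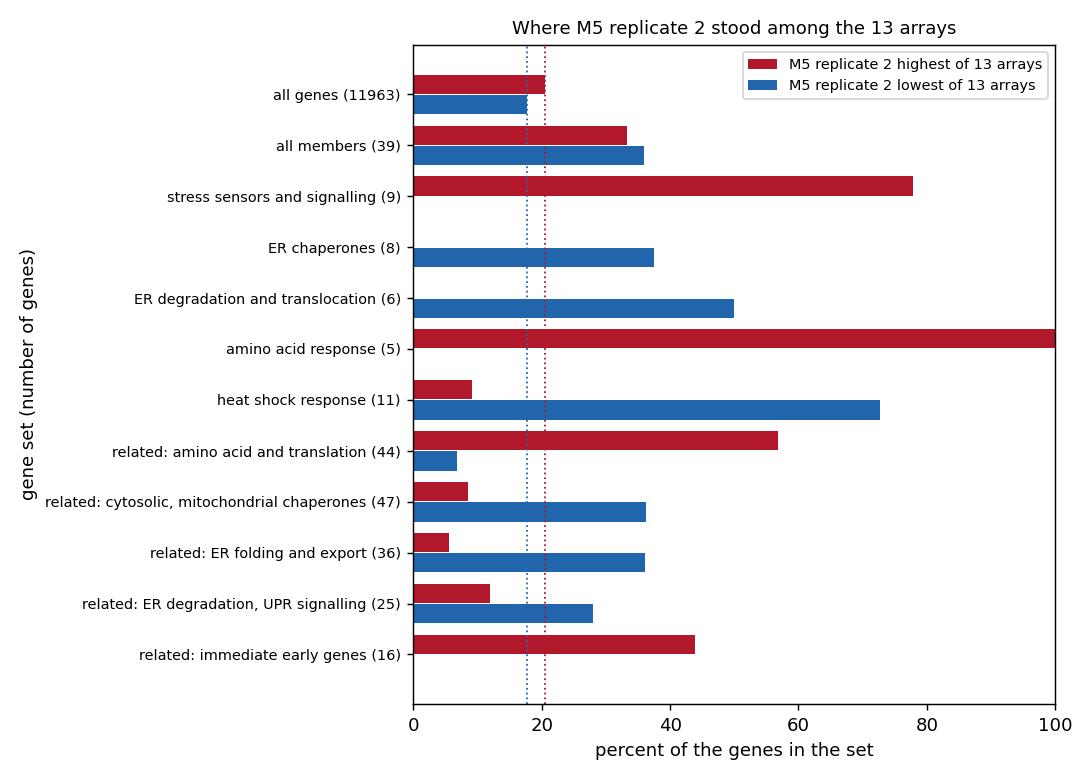
Bars give the percent of genes in each set (number of genes in brackets) for which M5 replicate 2 had the highest (red) or lowest (blue) signal of the 13 arrays, and dotted lines mark the percent over all genes. The amino acid genes (100%) and sensors and signalling genes (77.8%) were mostly highest there and the heat shock genes (72.7%) mostly lowest.

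Related lists were divided on the same array. From 44 measured genes of the amino acid response and translation, 25 (56.8%) were highest on M5 replicate 2 and 3 lowest. The following were named after their values had been seen. CHAC1, a glutathione-degrading target of ATF4, read 7.77 there and 4.55 to 6.26 elsewhere, PCK2 8.38 against 6.29 to 7.08, WARS1 11.36 against 9.46 to 10.15 and CARS1 10.77 against 9.15 to 9.86. Of 47 further cytosolic and mitochondrial chaperones, 17 (36.2%) were lowest there and 4 highest. ER folding and export had 13 of 36 genes lowest (36.1%) and 2 highest. ER-associated degradation and UPR signalling had 7 of 25 lowest (28%) and 3 highest (12%), while 7 of the 9 sensors and signalling members were highest there. Among 16 immediate early genes, which respond to the handling of cells, 7 (43.8%) were highest there, with EGR1 at 6.95 against 4.33 to 5.21, while FOS read 4.44 and JUN 6.98, within the range of the other arrays. The part of handling was not tested.

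The heat shock genes lay on the opposite side. DNAJB1 is the HSP40 partner of HSP70 and a direct target of HSF1. It read 9.58, 9.81, 9.55 and 10.00 in the controls, 9.55, 9.32 and 9.85 in M1, 9.78, 9.88 and 9.39 in M4 and 9.38, 8.50 and 9.46 in M5. All 3 M5 arrays were below every control array, by little in replicates 1 and 3. M5 differed from control by -0.62 ± 0.23 (SE; limma adjusted p = 0.18), by -0.53 ± 0.31 with the block (adjusted p = 0.467) and by -0.32 ± 0.18 without M5 replicate 2 (adjusted p = 0.626). Its other probe set gave a difference of -0.59.

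HSPH1 is the HSP110 exchange factor of HSP70. Its signal was 11.19, 10.89, 10.99 and 11.03 in the controls, 10.99, 10.89 and 10.64 in M1, 10.94, 10.59 and 10.59 in M4 and 11.06, 9.98 and 10.54 in M5. The arrays of clusters 3 and 4 were all below those of clusters 1 and 2, whatever their line. The ACTB 3' to 5' difference divided them in the same way, but its probe sets helped to define the clusters. M5 differed from control by -0.50 ± 0.20 (SE, limma adjusted p = 0.234), by 0.06 ± 0.19 with the block and by -0.22 ± 0.17 without M5 replicate 2. The other HSPH1 probe set gave -0.87 for M5 against control. BAG3, a co-chaperone of HSP70 in selective autophagy, read 9.18 on M5 replicate 2 and 9.73 to 10.08 elsewhere.

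HSPA1A and HSPA1B, the stress-inducible HSP70 genes, share 3 probe sets that name them together and so stood outside the tests. On M5 replicate 2 these probe sets read 8.90, 8.28 and 5.49, and on the other 12 arrays at least 10.74, 10.18 and 7.45. The signals were 3.58 to 3.88-fold lower on M5 replicate 2 than on M5 replicate 3. The signal of HSPA8, the constitutive HSP70, comes from 3 probe sets shared with small nucleolar RNAs, which were 1.20 to 1.53-fold lower. HSP90AA1 (13.03 on M5 replicate 2 and 13.13 to 13.54 elsewhere), HSP90AB1 (12.50 and 12.69 to 13.00) and the mitochondrial chaperonin pair HSPD1 (13.17 and 13.24 to 13.44) and HSPE1 (11.62 and 11.89 to 12.18) differed less. For M5 against control this HSP90AA1 probe set gave -0.25, and its other probe sets gave -0.43, -0.265 and -0.13. HSF1 itself read 7.29 there, within its range of 6.96 to 7.58.

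The small heat shock proteins did not share this order. CRYAB was highest on M5 replicate 2 (4.56), at a signal near the 17.3 percentile of all genes. HSPB1 read 10.34, 10.26, 10.05 and 10.67 in the controls and 10.17, 9.91 and 9.88 in M4. The groups overlapped at the first M4 array. M4 differed from control by -0.34 ± 0.15 (SE; unadjusted p = 0.0351, limma adjusted p = 0.679) and, with the block, by -0.27 ± 0.15, so the difference did not pass.

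M5 was the line with a called member. SEL1L, the scaffold that holds the ubiquitin ligase SYVN1 in ER degradation, was lower in M5 than in control by 0.63 on the log2 scale (-0.63 ± 0.15, SE; 1.55-fold; limma adjusted p = 0.0426). That is 1 of 39 members, where 2.37% of all genes were called and 1.85% were called lower. The controls read 8.10, 7.98, 7.95 and 8.003, M1 7.81, 8.05 and 7.99, M4 7.96, 8.06 and 7.98, and M5 7.81, 7.08 and 7.25. The low arrays were those of cluster 4, which held no other line, and the first M5 array was close to M1 replicate 1. With the block SEL1L differed by -0.16 ± 0.13 (adjusted p = 0.641) and 0 of 39 members were called, against 1.98% of all genes. Without M5 replicate 2 the difference was -0.48 ± 0.14 (adjusted p = 0.202), with 0 members called against 0.451% of all genes. Of the other SEL1L probe sets, 1 gave -0.41 and the remaining 2 gave -0.06 and 0.01.

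The unadjusted p for M5 against control was under 0.05 in 7 of 39 members, against 18% of all genes, and with the block in 2, against 15.3%. With M5 replicate 2 left out it was under 0.05 in 2 (SEL1L and SDF2L1), against 10.1%. When M5 replicate 1 was left out, so that M5 stood only on cluster 4, 13 of 39 members were called, beside 25.6% of all genes. These were DDIT3, ATF3, PPP1R15A and SDF2L1 on the higher side and EIF2AK3, HSPA5, DNAJC3, PDIA4, SEL1L, SSR1, HSPH1, DNAJB1 and HSP90AA1 on the lower side. For those arrays line and cluster cannot be told apart.

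Ranges of the 8 ER chaperones over the arrays ran from 0.505 for HYOU1 to 1.22 for PDIA4. HSPA5 (BiP), the main chaperone of the ER lumen, read 12.16, 12.16, 12.13 and 12.12 in the controls, 12.07, 12.04 and 12.21 in M1, 12.17, 12.12 and 12.12 in M4, and 12.30, 11.81 and 11.77 in M5. Its 2 lowest arrays were those of cluster 4, and M5 replicate 2, where DDIT3 was highest, was among them. HSP90B1 (GRP94) was also lowest on M5 replicate 2 (8.65), although XBP1, HSPA5 and HSP90B1 all hold the ER stress element.

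PDIA4, a protein disulphide isomerase, read 8.95, 8.90, 8.71 and 9.00 in the controls, 9.05, 8.94 and 8.44 in M1, 9.03, 8.30 and 8.33 in M4 and 8.99, 7.83 and 7.92 in M5. Its order followed the clusters, with means of 8.86, 8.99, 8.36 and 7.88 in clusters 1 to 4. The ACTB 3' to 5' difference also divided these clusters, which its probe sets helped to define. M5 differed from control by -0.64 ± 0.27 (SE, limma adjusted p = 0.239), by 0.03 ± 0.12 with the block and by -0.44 ± 0.29 without M5 replicate 2. The other PDIA4 probe set gave 0.18 for M5 against control, so the probe sets disagree in sign.

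SDF2L1, part of the BiP chaperone complex, was the member with all 3 M5 arrays above every control array beside ATF3. It read 8.08, 8.27, 8.03 and 8.37 in the controls, 8.24, 8.17 and 8.47 in M1, 8.39, 8.24 and 8.44 in M4 and 8.46, 8.52 and 8.64 in M5. M5 differed from control by 0.35 ± 0.12 (SE; limma adjusted p = 0.143), by 0.17 ± 0.14 with the block and by 0.36 ± 0.14 without M5 replicate 2. The difference was thus similar with and without that array, and was not called in either.

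**Figure D4:**
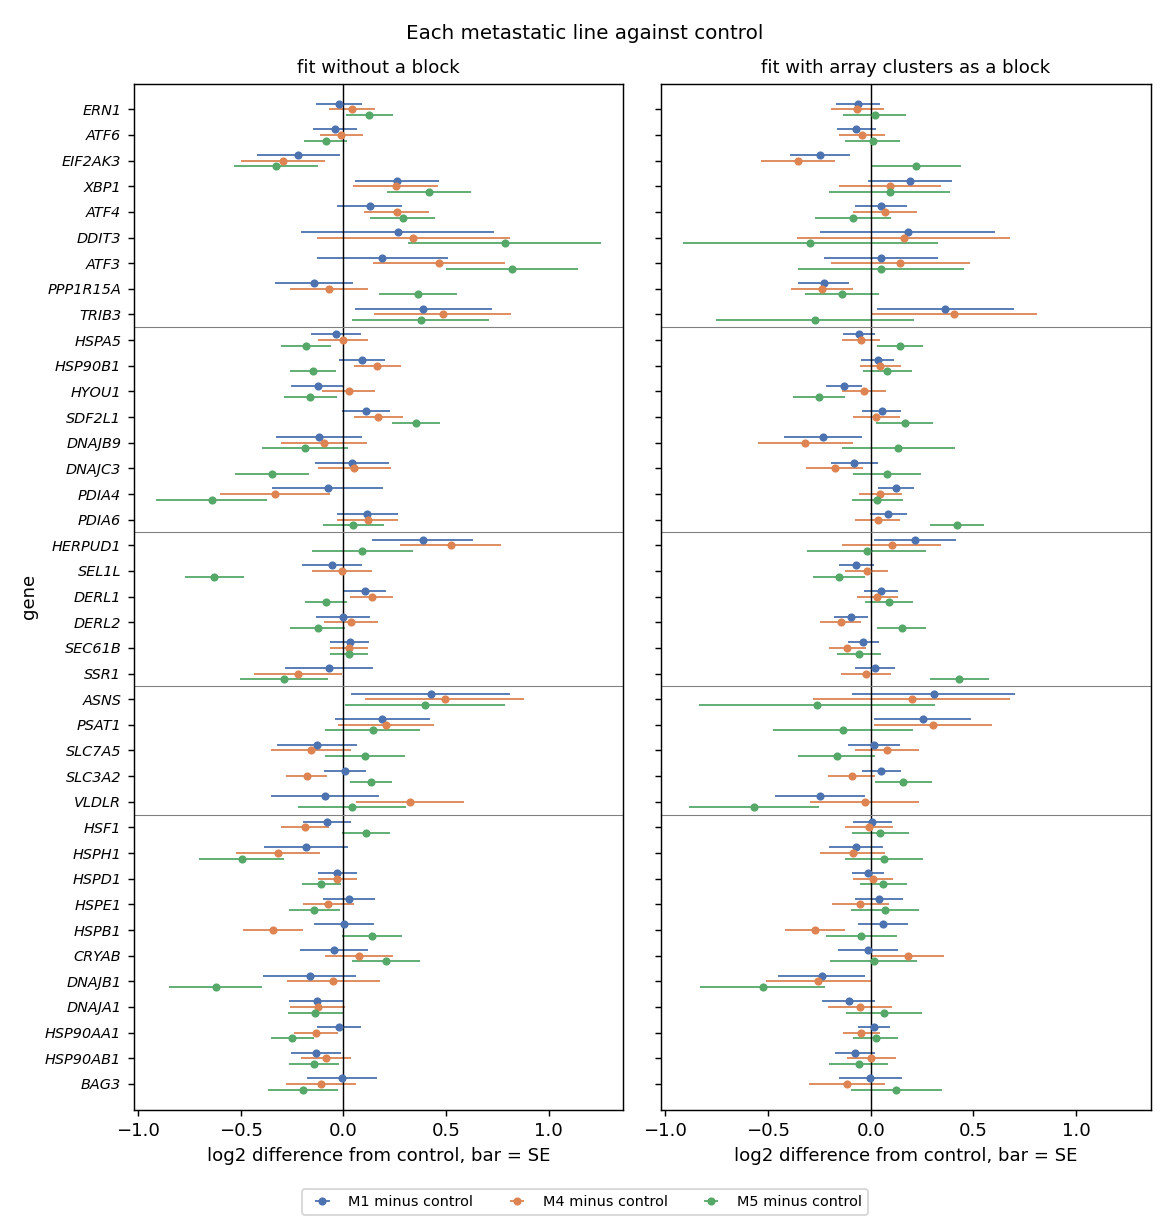
Points are log2 differences of M1, M4 and M5 from control (horizontal axis) for 39 genes (vertical axis), with bars of 1 SE, from the fit without a block (left) and with array clusters as a block (right). The M5 differences of SEL1L, PDIA4 and HSPH1 lie left of 0 without the block, and those of PDIA4 and HSPH1 lie at 0.03 and 0.06 with it.

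Of the degradation and translocation genes, HERPUD1 differed most between M4 and control. It encodes an ER membrane protein of the degradation machinery. HERPUD1 read 8.35, 8.65, 8.32 and 8.93 in the controls, 9.02, 8.50 and 9.33 in M1, 8.95, 9.27 and 9.04 in M4 and 8.79, 9.09 and 8.08 in M5. All M4 arrays lay above all control arrays. The difference of M4 from control was 0.52 ± 0.25 (SE; limma adjusted p = 0.737), and with the block 0.10 ± 0.24. SEC61B, a subunit of the translocation channel, had a range of 0.25 over all arrays, and DERL1 and DERL2 of 0.44 and 0.52. SSR1, of the translocon-associated complex, had its highest (10.65) and lowest (9.46) signals on M5 replicates 1 and 2.

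In M4, 9 of 39 members had all 3 arrays above all 4 control arrays (23.1%), against 5.92% of all genes. They were XBP1, ATF4, DDIT3, ATF3, TRIB3, HSP90B1, HERPUD1, ASNS and VLDLR. HSF1 and BAG3 were the 2 members below all controls, against 5.53% of all genes. In M5 the counts were 2 above (ATF3 and SDF2L1) against 5.88% and 3 below (ATF6, SEL1L and DNAJB1) against 6.3%, and in M1 1 above (TRIB3) against 2.35% and 0 below against 3.59%. These lines share the same 4 control arrays. None of the 39 members was called in M4 against control, where 0.092% of all genes were called, or with the block (0.15%). The unadjusted p was under 0.05 for 1 member (HSPB1), against 6.91% of all genes, and with the block for 0, against 7.01%. For the 9 members that were above all controls, the difference in M4 ran from 0.17 for HSP90B1 to 0.52 for HERPUD1, and with the block from -0.03 for VLDLR to 0.41 for TRIB3. Within cluster 2, the sole cluster with M4 and control together, M4 replicate 1 lay above the mean of its 2 controls by 0.41 for TRIB3, 0.25 for ASNS, 0.16 for HERPUD1 and 0.08 for DDIT3. These genes are among the 9 picked because their M4 arrays were above all control arrays. Positive differences without the block and within cluster 2 were thus fixed in advance, and only their sizes are described.

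M1 gave 0 called members against control (0.0251% of all genes; 0 and 0.234% once clusters were fitted), and 0 had an unadjusted p under 0.05 (3.08%, then 9.51%). M1 replicate 1 was higher than the controls of its cluster by 0.71 for ASNS, 0.65 for TRIB3 and 0.52 for DDIT3, whereas M1 replicate 2 differed from those of its own by -0.03, 0.14 and -0.01. The arrays of M1 therefore disagree on these genes by more than the controls do, with an SD of 0.46 against 0.16 for ASNS.

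Between the lines, 0 members were called in M4 against M1 (0.0251% of all genes; 0.117% with the block), in M5 against M1 (1.23%; 1.61%) or in M5 against M4 (2.16%; 1.85%). SEL1L came nearest, at -0.62 ± 0.16 in M5 against M4 (SE; limma adjusted p = 0.0669). Unadjusted p was under 0.05 for 1 member in M4 against M1 (2.83% of all genes), 2 in M5 against M1 (14.8%) and 6 in M5 against M4 (15.1%), and with the block for 1 (4.84%), 2 (15.4%) and 4 (14.3%). Without M5 replicate 2, 0 members were called in M5 against M1 (0.309%). Without M5 replicate 1, 9 members were called in M5 against M1 (19.8% of all genes) and 6 in M5 against M4 (20.4%), PPP1R15A higher and the others, HSPA5, PDIA4 and SEL1L among them, lower in both. The luciferase reporter gave 0 called members (0%; 0.0167% once clusters were fitted), and 0 had an unadjusted p under 0.05 (1.29%, then 5.93%), with differences from -0.245 (ERN1) to 0.14 (ATF3).

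Related lists, chosen with earlier results of these data known, held further calls. In M5 against control 4 of 36 genes of ER folding and export (11.1%, beside 1.85% of all genes) were called lower, namely SEC62 (-1.29, limma adjusted p = 0.0148), SRPRB (-0.72), SEC61A1 (-0.72) and SPCS1 (-0.53), which serve protein translocation into the ER and signal peptide removal. With the block none of these 4 was called. KDELR3, a retrieval receptor, was then called higher (0.84 ± 0.19, limma adjusted p = 0.0464), 1 of 36 genes (2.78%) beside 0.961% of all genes. Of 44 genes of the amino acid response and translation 1 was called lower (2.27%), near the 1.85% of all genes called lower. With the block it was again 1, beside 1.02% of all genes. This was EIF2B5, a subunit of the exchange factor that eIF2 phosphorylation blocks. It differed by -0.59 ± 0.13 without the block (limma adjusted p = 0.0314) and by -0.70 ± 0.13 with it (adjusted p = 0.0239). Of 16 immediate early genes 2 were called lower (12.5%, and 6.25% with the block), beside the same 1.85% and 1.02% of all genes. They were JUN (-0.58 ± 0.13 and, with the block, -0.79 ± 0.14) and DUSP1 (-0.89 ± 0.19, not called with the block). In the 25 genes of ER-associated degradation and the 47 chaperones, 0 were called in M5 against control, with or without the block.

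The spread of the members over the arrays was wider than that of all genes with M5 replicate 2 included. Their range over the 13 arrays had a median of 0.84 log2 units, beside 0.65 over all genes, and exceeded 1 in 15 of 39 members (38.5%) against 15.3%. Once M5 replicate 2 was left out the medians were 0.62 and 0.59, and 5 members (12.8%) exceeded 1, namely EIF2AK3, PDIA4, HERPUD1, ASNS and VLDLR, against 10.5% of all genes. Members were also brighter, with a median mean signal of 9.18 against 6.20. Clusters accounted for a median of 63% of the sum of squares of a member and groups for 27%, beside 58.9% and 34.2% over all genes.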

How the data were processed

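Total RNA of 13 pools, each of 3 groups of cells, was measured on Affymetrix arrays. The authors deposited log2 signals of 22277 probe sets. These come from RMA, per the submitters' processing notes, with no version given in the sources used here. RMA normalizes arrays to one distribution, so shifts common to all genes are not seen. Of the probe sets, 19064 name 1 gene, 1043 several and 2108 none by the platform annotation, and 62 are controls. The probe set with the highest mean stood for its gene, and 16 of the 39 members have several.

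Group means of all 13 arrays were fitted with limma (3.58.1, R 4.3.3; lmFit and eBayes), control being the mean of both kinds, with Benjamini-Hochberg adjustment over 11963 genes and calls at an adjusted p under 0.05. Array clusters came from Ward clustering of the control probe sets. Errors are SE. No gene was left out of the tests for low signal. Values per array were given for SEL1L and the 2 members of each role with the widest range of group means among those whose highest group mean exceeds the median gene, and for others named after their values were seen. The code was tested on simulated data. Promoters came from RefSeq. The members, lists and array clusters were chosen with earlier results of these data known. Alternatives were other scalings, probe sets, controls, blocks, thresholds and leaving out each array. The number of arrays limits the precision. A further control pair for RNA ends is not reported here.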

Additional observations from a re-analysis of the deposited data

Results flagged for a closer look

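Single arrays far from the rest of their set were sought for each member among the 4 control arrays and among the 9 metastatic arrays, by the gap to the nearest array as a share of the set's range. Of 78 such sets 9 were marked, where the limit marks about 1 in 20 single sets by chance. Members on the same array are not independent, so the count is a description and no test. M5 replicate 2 accounted for 7 of the marks, and over all genes it was the highest of the 13 arrays for 20.5% and the lowest for 17.7%. It was highest among the metastatic arrays for XBP1 (8.19, next 7.49), DDIT3 (9.81, next 7.91), ATF3 (6.7, next 5.59) and TRIB3 (10.89, next 9.99). It was lowest for HSPH1 (9.98, next 10.54), DNAJB1 (8.5, next 9.32) and BAG3 (9.18, next 9.73). Among the control arrays, control with luciferase replicate 1 was low for DNAJB9 (5.5, next 5.85), an ER co-chaperone, and control with luciferase replicate 2 was high for DNAJC3 (5.35, next 5.19), an inhibitor of PERK.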

How the results depend on the processing

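Of 198 alternative counts of called members, 26 moved and none turned the direction of a called member. In M5 against control the count of 1 became 0 with array clusters as a block, with probe sets averaged, in a fit of only the arrays compared, at an adjusted p under 0.01, with a 2-fold change added, with either kind of control alone, and with M5 represented by its first array alone, which was chosen after seeing the data. Leaving out single arrays gave 0 to 13 members there, 0 to 9 in M5 against M1 and 0 to 6 in M5 against M4. The call of SEL1L was lost without any array but M5 replicate 1, with limma adjusted p from 0.0576 to 0.205 for the 12 losses. It held with median centring, quantile normalization, an intensity trend and dim genes left out (adjusted p 0.0312 to 0.0395); the last also gave 1 member, SEL1L, in M5 against M4. The deviations of same-numbered arrays from their group means had r from -0.51 to 0.53 (median -0.07, over 23 pairs). Some pairs thus deviated together and others in opposite directions. With only 2 or 3 arrays in a group, its deviations are tied to each other, so these values cannot settle a pairing. With the replicate block 0 members were called and SEL1L differed by -0.61 (limma adjusted p = 0.121). Arrays of M5 replicates 2 and 3 have no control in their cluster.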
